A study of Mus musculus with 11 samples.

Results

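The genes described here are 10 transcriptional readouts and feedback inhibitors of FGF/ERK signaling, namely *Spry1*, *Spry2*, *Spry4*, *Spred1*, *Spred2*, *Il17rd*, *Dusp6*, *Etv1*, *Etv4* and *Etv5*. They were chosen by name as known response genes of this pathway and matched by symbol to the Ensembl identifiers of the count files. All 10 were among the 38561 genes in the files and among the 17317 genes that passed the low-count filter and were tested. RNA was sequenced from facial process explants (nasal processes with the maxillary and mandibular parts of the branchial arch) of E10.5 mouse embryos to ask how loss of *Wnt9b*, of *Rspo2* or of both genes changes expression in the developing face. WNT9b is a WNT ligand made by the facial ectoderm, and RSPO2 is a secreted protein that amplifies WNT signals. There were 2 wild-type (wt) libraries and 3 libraries each from embryos homozygous for a *Wnt9b* mutation (Wnt9bKO), an *Rspo2* mutation (Rspo2KO) or both (DKO), all without treatment. The paper mentions a mixed genetic background for its Wnt9bKO mice and does not state the background of the other groups. Which *Rspo2* null allele was used for sequencing, and whether a library came from 1 embryo or from pooled tissue, is not given in the sources used here.

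Fibroblast growth factors bind receptor tyrosine kinases and, through RAS, RAF and MEK, activate the kinase ERK. ERK signaling switches on genes that hold it in check, so the RNA levels of these genes are widely used as a readout of pathway activity. In the facial processes FGFs from the ectoderm support survival and outgrowth of the underlying mesenchyme. The feedback genes act at different steps. Sprouty proteins (*Spry1*, *Spry2*, *Spry4*) and Spred proteins (*Spred1*, *Spred2*) restrain the pathway at the level of RAS and RAF, Sef (*Il17rd*) is a transmembrane inhibitor, and *Dusp6* encodes a phosphatase that removes phosphate from ERK in the cytoplasm. *Etv1*, *Etv4* and *Etv5* form the PEA3 group of ETS transcription factors, which bind a GGAA core and carry the transcriptional response to FGF.

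*Il17rd* rose and *Spry2* fell in Wnt9bKO and in DKO against wt, *Etv5* rose in Wnt9bKO and *Dusp6* fell in DKO, and the sequences just before the start of these 4 genes are shown because their levels carry results that follow. They come from RefSeq promoters on GRCm38.p6, are written from 5′ to 3′ on the strand of the gene and stop at the outermost annotated start, and capitals mark the ETS core GGAA or its reverse complement TTCC. *Il17rd* is shown at chr14:27038751-27038940 on the plus strand, *Etv5* at chr16:22439720-22439820 on the minus strand, *Spry2* at chr14:105896820-105897069 on the minus strand, and *Dusp6* at chr10:99262981-99263230 on the plus strand.
Il17rd: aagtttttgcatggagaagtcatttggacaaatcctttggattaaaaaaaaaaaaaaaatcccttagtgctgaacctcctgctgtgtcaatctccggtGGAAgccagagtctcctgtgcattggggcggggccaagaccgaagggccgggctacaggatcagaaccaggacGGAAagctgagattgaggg
Etv5: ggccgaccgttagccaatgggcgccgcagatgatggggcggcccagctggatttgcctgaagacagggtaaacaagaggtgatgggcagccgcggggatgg
Spry2: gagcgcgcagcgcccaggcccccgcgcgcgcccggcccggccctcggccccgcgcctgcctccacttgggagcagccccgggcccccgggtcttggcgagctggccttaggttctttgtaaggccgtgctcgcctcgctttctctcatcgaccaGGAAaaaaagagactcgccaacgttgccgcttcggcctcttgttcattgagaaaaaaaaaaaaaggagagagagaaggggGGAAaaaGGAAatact
Dusp6: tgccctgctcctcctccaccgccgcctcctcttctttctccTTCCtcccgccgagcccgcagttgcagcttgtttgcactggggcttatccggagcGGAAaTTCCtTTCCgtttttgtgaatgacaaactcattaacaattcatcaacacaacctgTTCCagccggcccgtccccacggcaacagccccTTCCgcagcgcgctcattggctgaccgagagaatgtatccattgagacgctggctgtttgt
The GGAA core, read on both strands, was found 6 times in the *Dusp6* stretch, 3 times in that of *Spry2*, 2 times in that of *Il17rd* and 0 times in the shorter stretch of *Etv5*. Over the full 250 bases before the start it was present in at least 1 promoter of all 8 members found in the promoter table, with 0 to 7 matches in each of their 10 promoters. It was also present in 93.4% of all 32536 promoters searched, with a median of 3 matches. Longer motifs that contain it or stand for other ERK and WNT effectors were found in 0 of the 10 promoters, namely CCGGAA for ETS factors (12.1% of all promoters), TGAGTCA for AP-1 (4.45%), TGACGTCA for CREB (1.56%) and CTTTGAT for TCF/LEF (3.21%). A match is a run of letters and not a binding site, and its absence concerns this window only.

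Before the members are described, several properties of the libraries need to be stated. Total counts ranged from 11136166 to 18017344. *Rspo2* levels in CPM (counts scaled to a common library total) were 14.8 and 15.99 for wt and 4.73 to 6.58 for Rspo2KO, but 2.86 CPM in the library labelled Wnt9bKO 2 and 15.5 CPM in the library labelled DKO 3, against their labels. *Wnt9b* was not lower but higher in the libraries labelled mutant, since every Wnt9bKO library (16.2 to 23.3 CPM) and every DKO library (18.2 to 20.2 CPM) lay above both wt libraries (10.8 and 13.4 CPM). These are counts over the whole gene, and which part of *Wnt9b* the mutation alters is not given in the sources used here, so they do not check these labels. The genotype names that follow are the labels of the libraries. The libraries also differed in sex-linked expression, with *Xist* at 679 to 1468 CPM in wt and DKO and at 0.82 to 1.94 CPM in both kinds of single mutant. Only DKO against wt thus compares groups alike in *Xist*. In the other comparisons and the interaction, sex and genotype cannot be told apart. All 10 members lie on autosomes, and a part of sex in their differences was not tested. Chromosomes of the genes in the pathway lists described later are not given here, and a part of sex in their differences was not tested. The 1367 annotated small nuclear RNAs summed to 352 to 419 CPM in wt and Rspo2KO and to 70.1 to 82.6 CPM in Wnt9bKO and DKO, so the libraries labelled Wnt9bKO and DKO stood apart as a set. Any technical difference of that kind and the genotype cannot be told apart. The markers of facial mesenchyme and of surface epithelium fixed for the tissue were all detected in every library.

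Per kilobase of exon, the 10 genes spanned a wide range in wt. *Dusp6* had the highest level at 57.5 ± 2.52 CPM per kb (SD, n = 2), followed by *Spred1* at 18.9 and *Spry2* at 13.2 CPM per kb. *Spry1* (9.85), *Etv5* (9.74) and *Etv4* (9.27) came next, and *Etv5* overlapped both of the others. *Il17rd* followed at 6.84 CPM per kb. *Spred2* (2.52) and *Spry4* (2.44) overlapped, and *Etv1* was lowest at 1.34 CPM per kb. *Dusp6* and *Spred1* held the first and second place, and *Spred2*, *Spry4* and *Etv1* the last 3 places, in all 4 genotypes. By mean level, *Etv5* and *Il17rd* stood next below *Spred1* in Wnt9bKO and DKO, and *Spry2* stood there in wt and Rspo2KO. Several of these places were not separated by the libraries. In Rspo2KO *Spry2* overlapped *Etv5*, in Wnt9bKO *Etv5* overlapped *Il17rd* and *Spry1*, in DKO *Il17rd* overlapped *Spry2*, and in Wnt9bKO and DKO *Spry1* overlapped *Il17rd* and *Spry2*.

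**Figure D1:**
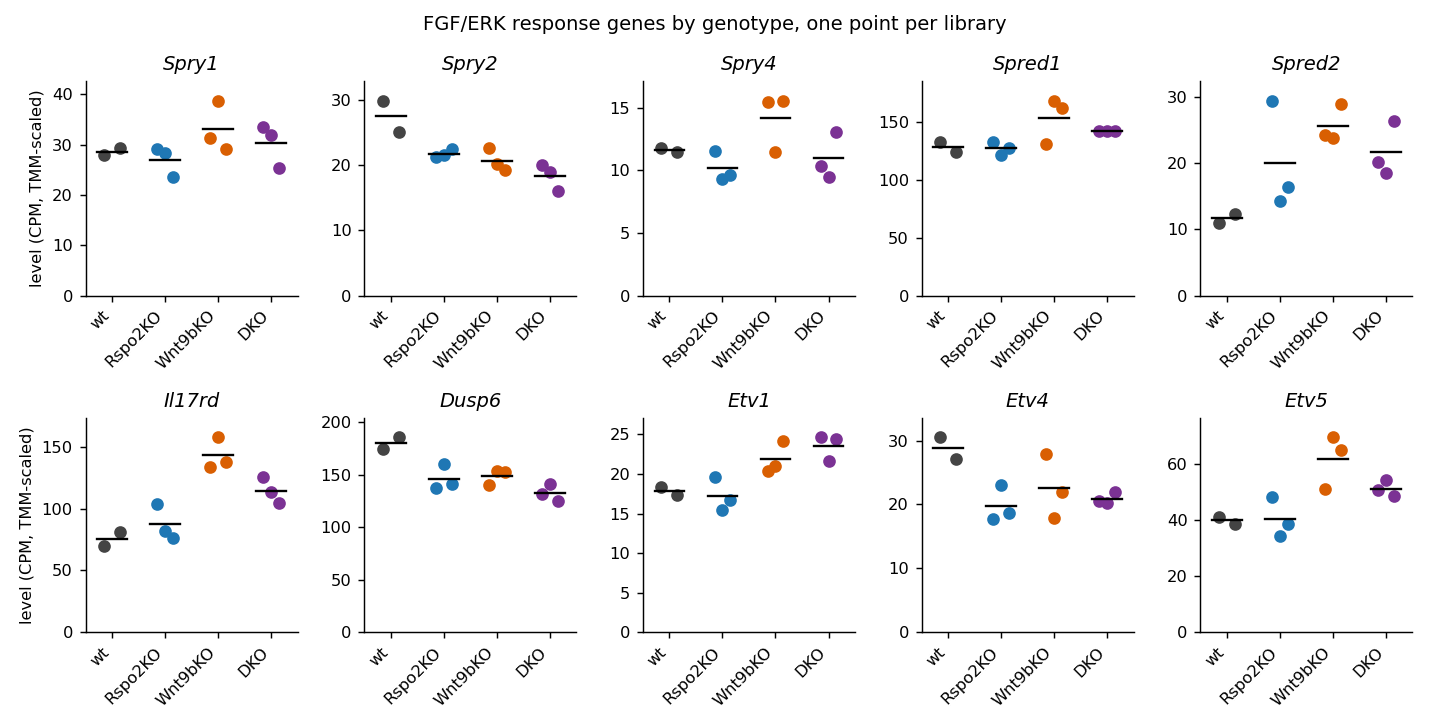
Level of each of the 10 genes (y axis, CPM, TMM-scaled) by genotype (x axis), with 1 point per library and a bar at the mean of the group. For *Il17rd*, *Etv1* and *Etv5*, all 6 Wnt9bKO and DKO libraries lie above the 5 wt and Rspo2KO libraries, and for *Spry2* and *Dusp6* every mutant library lies below both wt libraries.

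In Wnt9bKO against wt, *Il17rd*, *Spred2* and *Etv5* rose and *Spry2* fell, so 4 of 10 genes passed edgeR's quasi-likelihood test at an adjusted p below 0.05, where 32.8% of all genes tested passed. In DKO against wt, *Il17rd*, *Spred2* and *Etv1* rose and *Spry2* and *Dusp6* fell, which is 5 of 10 against 27.5% of all genes. The count in Wnt9bKO is close to its share of all genes, and that in DKO lies above it. With 10 genes, neither is a result about the set as a whole. The median log2 fold change of the 10 genes was 0.27 in Wnt9bKO and 0.11 in DKO, against 0.01 over all genes in each. In Rspo2KO against wt 0 of 10 genes passed, where 0.0346% of all genes did. DESeq2 also called 0 there, and 4 genes had an unadjusted p below 0.05 (11.9% of all genes). Under the rule of the study (unadjusted p below 0.05 and more than 1.5-fold), 3 genes passed in Wnt9bKO (24.8% of all genes), 2 in DKO (20.4%) and 1 in Rspo2KO (4.68%), against wt. By that rule 0 passed in DKO against Wnt9bKO (2.93%) and against Rspo2KO (12.2%), and 1 in the interaction described later (5.85%). The difference between these counts and the share of all genes was not tested. Without the libraries labelled Wnt9bKO 2 and DKO 3, 3 of 10 genes passed in Wnt9bKO (29.7% of all genes) and 4 in DKO (25.6%). In DKO *Spred2* (adjusted p = 0.0676) and *Etv1* (0.103) then lost the call and *Etv4* (-0.50, adjusted p = 0.0377) gained it. In whole explants, fewer cells that express a gene and less RNA per cell cannot be told apart.

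**Figure D2:**
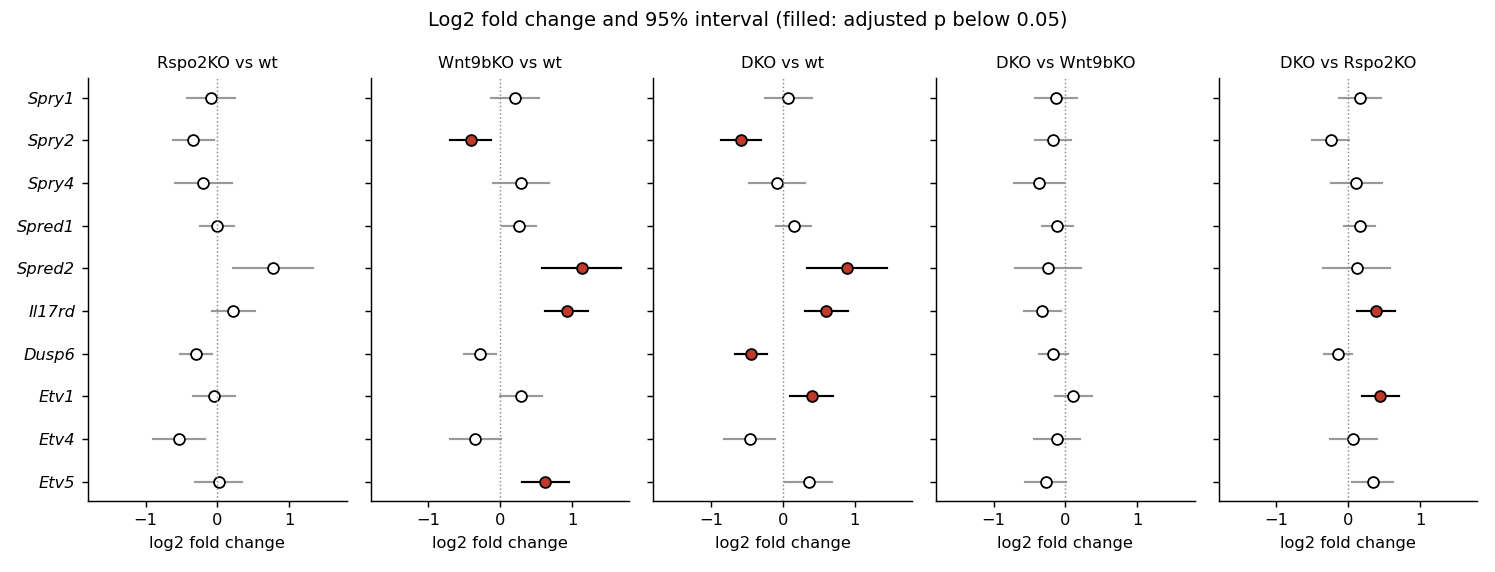
Log2 fold change (x axis) of each gene (y axis) in 5 comparisons, with the 95% interval as a line and a filled point where the adjusted p of edgeR's test is below 0.05. Filled points lie on both sides of 0 in Wnt9bKO and DKO against wt, and there are none in Rspo2KO against wt or in DKO against Wnt9bKO.

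Among the inhibitors, *Il17rd* rose in Wnt9bKO and DKO. Its level was 69.5 and 80.7 CPM in wt, 76.6, 82.2 and 104.1 CPM in Rspo2KO, 133, 138 and 158 CPM in Wnt9bKO, and 104.7, 113 and 126 CPM in DKO. Every Wnt9bKO library was thus above every other library of the series, and every DKO library above wt and Rspo2KO, although the lowest DKO library exceeded the highest Rspo2KO library only narrowly. *Il17rd* was 1.90-fold higher in Wnt9bKO than in wt (log2 0.93 ± 0.14 SE, adjusted p = 0.000308) and passed the test under all 21 alternatives. In DKO it was 1.52-fold higher than in wt (log2 0.61 ± 0.14, adjusted p = 0.00573), a call that was lost without wt 1 (0.50, adjusted p = 0.0945). The Rspo2KO difference was 0.22 with a 95% interval from -0.08 to 0.52.

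*Spred2* also rose in Wnt9bKO and DKO. Its level was 10.98 and 12.31 CPM in wt, 14.3, 16.5 and 29.5 CPM in Rspo2KO, 23.8, 24.3 and 28.9 CPM in Wnt9bKO, and 18.5, 20.1 and 26.4 CPM in DKO. All 9 mutant libraries were above both wt libraries, and the mutant genotypes overlapped, with the highest value of all in Rspo2KO 1. *Spred2* was 2.20-fold higher in Wnt9bKO (log2 1.14 ± 0.26, adjusted p = 0.00428) and 1.86-fold higher in DKO (0.89 ± 0.26, adjusted p = 0.0199) than in wt. In Rspo2KO the difference was 0.77 ± 0.26, with an unadjusted p of 0.00975 and an adjusted p of 0.277 in edgeR's test. Its interval ran from 0.22 to 1.33. With no low-count filter the Rspo2KO difference passed (adjusted p = 0.00245). Leaving out wt 1 moved the adjusted p to 0.0574 in Wnt9bKO and 0.151 in DKO. The DKO call was also lost without wt 2 (adjusted p = 0.0834) or DKO 3 (adjusted p = 0.0696), and without both Wnt9bKO 2 and DKO 3 (0.72, adjusted p = 0.0676).

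*Spry2* moved the other way. It was at 29.9 and 25.1 CPM in wt, 21.2, 21.5 and 22.4 CPM in Rspo2KO, 22.6, 20.2 and 19.2 CPM in Wnt9bKO, and 19.9, 18.98 and 16.1 CPM in DKO. Both wt libraries were above all 9 mutant libraries. Its log2 fold change was -0.41 ± 0.13 in Wnt9bKO (adjusted p = 0.0282) and -0.58 ± 0.13 in DKO (adjusted p = 0.00529), and in Rspo2KO it was -0.34 ± 0.13 with an adjusted p of 0.329. The Wnt9bKO call was lost without wt 1 (-0.29, adjusted p = 0.228), Wnt9bKO 2 (-0.37, 0.075) or Wnt9bKO 3 (-0.33, 0.105), and the DKO call without wt 1 (-0.46, adjusted p = 0.0703).

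The other Sprouty and Spred genes did not pass in any comparison, apart from *Spry1* and *Spred1* in Wnt9bKO under 1 alternative each. *Spry1* lay between 23.5 and 38.8 CPM and *Spry4* between 9.34 and 15.6 CPM over the 11 libraries. Each genotype overlapped each of the others for both genes, except that *Spry1* was at 23.5 to 29.10 CPM in Rspo2KO and at 29.18 to 38.8 CPM in Wnt9bKO. Their log2 fold changes in Wnt9bKO against wt were 0.21 (95% interval -0.12 to 0.54) and 0.29 (-0.10 to 0.68). With the GC and length offset described later and a term for replicate number together, *Spry1* passed at 0.42 (adjusted p = 0.0288). *Spred1* was at 132 and 124 CPM in wt, 121 to 132 CPM in Rspo2KO, 131, 161 and 168 CPM in Wnt9bKO and 142 CPM in each DKO library. DKO did not overlap wt or Rspo2KO, yet the DKO difference from wt was only 0.15 (-0.09 to 0.39), and the Wnt9bKO difference of 0.26 had an adjusted p of 0.0869 that fell to 0.0107 without Wnt9bKO 1. For *Spry1*, *Spry2* and *Spry4* the point estimates were all below 0, and none passed, in Rspo2KO against wt (-0.09, -0.34 and -0.20) and in DKO against Wnt9bKO (-0.13, -0.17 and -0.37). This was not particular to them. Only 3 of the 10 members were above 0 in Rspo2KO against wt (50.2% of all genes) and only 1 in DKO against Wnt9bKO (49.5%). The estimate of *Spry1* changed sign under 3 of 21 alternatives in Rspo2KO against wt and under 2 of 21 in DKO against Wnt9bKO.

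*Dusp6*, the ERK phosphatase and the most abundant member per length, was lower in every mutant library. It was at 174 and 186 CPM in wt, 137, 160 and 141 CPM in Rspo2KO, 140, 154 and 153 CPM in Wnt9bKO, and 132, 141 and 125 CPM in DKO. The mutant genotypes overlapped one another. *Dusp6* fell in DKO by 0.44 on the log2 scale (SE 0.10, adjusted p = 0.00621), which is 1.36-fold, and lost the call without wt 2 (-0.40, adjusted p = 0.0646). In Wnt9bKO the difference was -0.28 ± 0.10, with an adjusted p of 0.0538 that passed under 3 alternatives, at 0.0375 with DESeq2, 0.0371 without Rspo2KO 1 and 0.0437 with a term for replicate number. In Rspo2KO it was of similar size, -0.30 ± 0.10, with an unadjusted p of 0.0112 and an adjusted p of 0.283.

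Of the PEA3 factors, *Etv5* rose in Wnt9bKO and *Etv1* in DKO. *Etv5* was at 41.2 and 38.7 CPM in wt, 48.33, 34.5 and 38.6 CPM in Rspo2KO, 51.0, 69.6 and 65.0 CPM in Wnt9bKO, and 50.9, 54.3 and 48.51 CPM in DKO. All 6 Wnt9bKO and DKO libraries were above the other 5, again with little distance between the lowest DKO and the highest Rspo2KO library. It rose 1.55-fold in Wnt9bKO (log2 0.63 ± 0.15, adjusted p = 0.00632), a call lost without wt 2 (0.58, adjusted p = 0.067). The DKO difference was 0.36 with an interval from 0.03 to 0.69 and an adjusted p of 0.0955, which was 0.0479 without Wnt9bKO 1.

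*Etv1*, a long transcript at a low level per length, was at 18.3 and 17.4 CPM in wt, 19.7, 15.5 and 16.7 CPM in Rspo2KO, 20.4, 20.96 and 24.1 CPM in Wnt9bKO, and 24.6, 21.6 and 24.4 CPM in DKO. The 6 Wnt9bKO and DKO libraries were also above the other 5. The rise in DKO over wt (log2 0.40 ± 0.14, adjusted p = 0.043) lay close to the threshold and was lost under 11 of 21 alternatives, among them a term for replicate number (adjusted p = 0.0542) and leaving out wt 1 (adjusted p = 0.15), wt 2 (0.212), Rspo2KO 3 (0.0551), DKO 1 (0.119) or DKO 3 (0.0989). The Wnt9bKO difference of 0.29 had an adjusted p of 0.118.

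The point estimates of *Etv4* against wt were below 0 in all 3 mutants, and passed only under some of the alternatives. It was at 30.5 and 27.0 CPM in wt, 17.7, 23.0 and 18.6 CPM in Rspo2KO, 27.9, 17.9 and 21.99 CPM in Wnt9bKO, and 20.5, 20.2 and 21.95 CPM in DKO. Rspo2KO and DKO lay wholly below wt, while Wnt9bKO 1 fell within the wt range. In edgeR's test its log2 fold change was -0.54 ± 0.17 in Rspo2KO (unadjusted p = 0.00635, adjusted p = 0.248). It was -0.34 ± 0.17 in Wnt9bKO (adjusted p = 0.129) and -0.46 ± 0.17 in DKO (adjusted p = 0.0538). The DKO value passed under 7 of 21 alternatives, DESeq2 (adjusted p = 0.0371) and leaving out Wnt9bKO 1 (0.0201) or Wnt9bKO 2 (0.0348) among them, the Wnt9bKO value passed without Wnt9bKO 1 (-0.52, adjusted p = 0.0169), and the Rspo2KO value with no low-count filter (-0.53, adjusted p = 0.0428).

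Across the members, groups that did not overlap were frequent, as they were across the genome. In Wnt9bKO 6 of 10 genes did not overlap wt, where 56.3% of all genes tested did not. In DKO this held for 8 of 10 (58.1% of all genes) and in Rspo2KO for 4 of 10 (32.9%). Between the 6 Wnt9bKO and DKO libraries and the other 5, 3 of 10 genes did not overlap, against 20.8% of all genes, and these were *Il17rd*, *Etv1* and *Etv5*.

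The *Wnt9b* genotype could be compared in a pair of contrasts that share no library, Wnt9bKO against wt and DKO against Rspo2KO. Both set libraries with low small nuclear RNA sums against libraries with high sums. A technical difference between these sets would enter both contrasts, and in neither can it be told apart from the *Wnt9b* genotype. In DKO against Rspo2KO, *Etv1* (log2 0.45 ± 0.12, adjusted p = 0.0195) and *Il17rd* (0.39 ± 0.12, adjusted p = 0.0403) rose, which is 2 of 10 genes against 18.2% of all genes tested. *Etv5* was at 0.34 (adjusted p = 0.0955) and *Spry2* at -0.24 (adjusted p = 0.181). The sign of the difference was the same in both contrasts for 9 of 10 genes, all but *Etv4*, and for 78.1% of all genes. *Spred2* differed by 1.14 in the first contrast and by 0.12 (95% interval -0.35 to 0.59) in the other. The count of 2 ranged from 0 to 4 when single libraries were left out. *Il17rd* lost its call without wt 1, Rspo2KO 2, Rspo2KO 3, DKO 1 or DKO 2 (adjusted p from 0.0648 to 0.185), and *Etv1* without Rspo2KO 2, Rspo2KO 3, DKO 1 or DKO 3 (from 0.0543 to 0.0948). *Etv5* passed without Rspo2KO 1 (0.0163) or Wnt9bKO 1 (0.0464), and *Spred2* without Rspo2KO 1 (0.50, adjusted p = 0.0427). Without Wnt9bKO 2 and DKO 3, 1 gene passed (16.7% of all genes), *Il17rd* at 0.45 (adjusted p = 0.0324), and *Etv1* had an adjusted p of 0.0565.

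**Figure D3:**
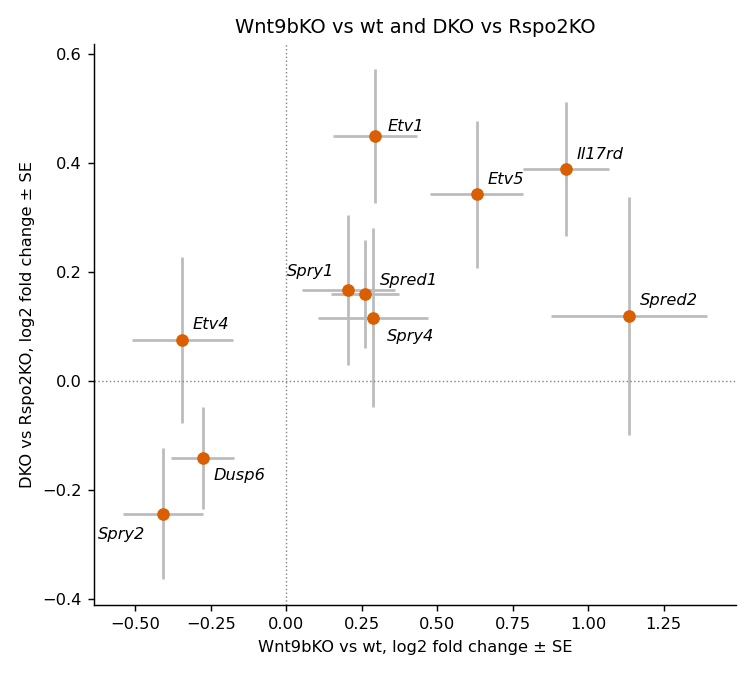
Log2 fold change in Wnt9bKO against wt (x axis) and in DKO against Rspo2KO (y axis), 1 point per gene with SE as lines. *Il17rd*, *Etv5* and *Etv1* lie to the upper right, *Spry2* and *Dusp6* to the lower left, *Spred2* near 0 on the y axis, and *Etv4* has opposite signs.

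The *Rspo2* genotype on the *Wnt9b* mutant background was compared in DKO against Wnt9bKO. In DKO against Wnt9bKO 0 of 10 genes passed edgeR's test (0.121% of all genes), DESeq2 called 0 as well, and 2 genes had an unadjusted p below 0.05 (5.63% of all genes), *Il17rd* at -0.32 (95% interval -0.58 to -0.06, adjusted p = 0.709) and *Spry4* at -0.37 (-0.71 to -0.02, adjusted p = 0.833). The log2 fold change was below 0 for 9 of 10 genes, while 49.5% of all genes were above 0. The median was -0.17 against 0.00 over all genes, and only *Il17rd* did not overlap between the groups (11.2% of all genes). In the other contrast for *Rspo2*, Rspo2KO against wt, which shares no library with it, 6 of 10 genes had the same sign as here, where 48.1% of all genes did. This comparison rests on the libraries labelled Wnt9bKO 2 and DKO 3, whose *Rspo2* levels went against their labels. Without them 0 of 10 genes passed edgeR's test (0.117% of all genes), and *Spry4* was at -0.65 (adjusted p = 0.287), *Spred2* at -0.46 in place of -0.24, *Il17rd* at -0.18 and *Spry1* at 0.11 in place of -0.13.

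The interaction asks whether DKO departs from the sum of the changes in the single mutants. It passed for 0 of 10 genes with edgeR (0.0635% of all genes) and 0 with DESeq2, and 2 genes had an unadjusted p below 0.05 (9.44% of all genes). These were *Spred2* at -1.02 ± 0.34 (adjusted p = 0.427) and *Il17rd* at -0.54 ± 0.19 (adjusted p = 0.435), both lower in DKO than the sum of the single changes. For *Spred2* the changes against wt were 0.77 in Rspo2KO, 1.14 in Wnt9bKO and 0.89 in DKO. Without Wnt9bKO 2 and DKO 3 the interaction of *Spred2* was -1.22 (adjusted p = 0.474) and that of *Il17rd* -0.39 (0.62), and 0 of 10 genes passed (0.07% of all genes).

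Differences between genotypes also ran with transcript length. Over 17020 genes with a known length and GC content, the longest 25% of genes (from 6397 bases of exon) had a median log2 fold change of 0.19 in Wnt9bKO and 0.18 in DKO, and the shortest 25% (up to 2352 bases) of -0.11 in both. In Rspo2KO the corresponding medians were 0.08 and -0.02. Of the members, *Etv1* (13296 bases), *Il17rd* (10985) and *Spred1* (6784) fall among the longest genes and *Spry2* (2087) among the shortest. With a loess offset on GC content and length, *Il17rd* remained higher in Wnt9bKO at 0.63 (adjusted p = 0.00112) and in DKO at 0.34 (adjusted p = 0.042). The difference of *Etv1* shrank to 0.03 in Wnt9bKO (adjusted p = 0.891) and 0.13 in DKO (adjusted p = 0.454). *Spred2* (1.121, adjusted p = 0.00435), *Etv5* (0.66, 0.00602) and *Spry2* (-0.43, 0.0225) in Wnt9bKO, and *Dusp6* (-0.45, 0.0039) and *Spry2* (-0.64, 0.00301) in DKO, kept their call with the offset.

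**Figure D4:**
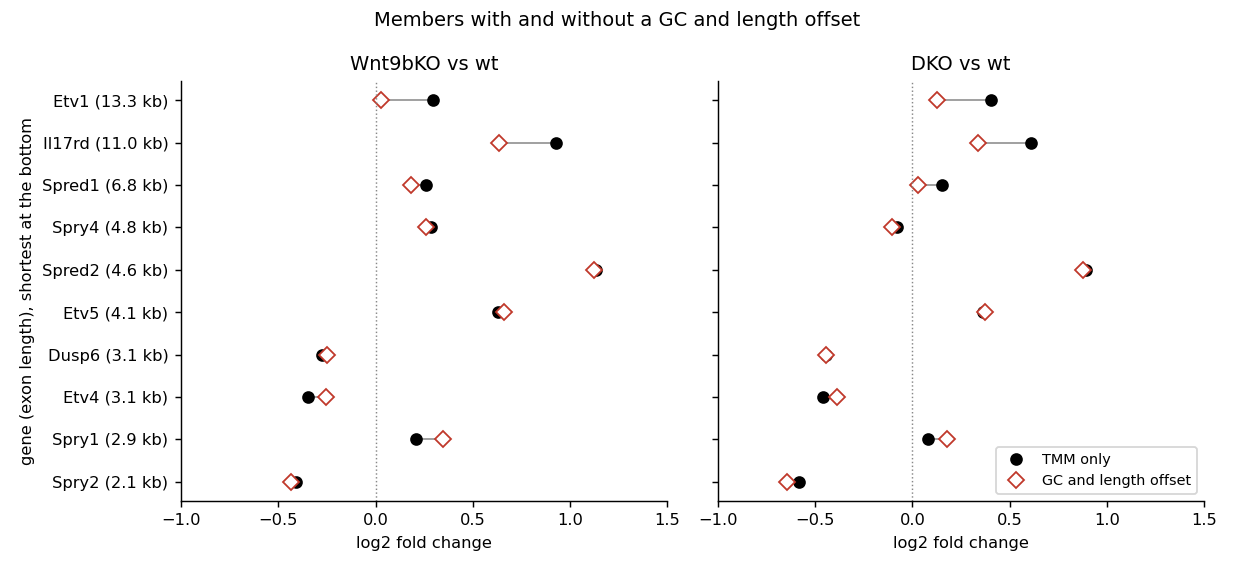
Log2 fold change (x axis) of each gene in Wnt9bKO and DKO against wt, with TMM scaling only (black circles) and with an added GC and length offset (open diamonds), genes ordered by exon length in kilobases (y axis). The long genes *Etv1* and *Il17rd* move toward 0 with the offset, and *Spred2*, *Etv5* and *Dusp6* hardly move.

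Markers of other tissues also differed between the libraries. Erythroid markers (8 genes) summed to 3986 to 5827 CPM in wt and Rspo2KO and 1789 to 2907 CPM in Wnt9bKO and DKO, and forebrain and eye markers (8 genes) to 108 to 143 CPM and 128 to 275 CPM. The highest forebrain and eye sum was in the library labelled Wnt9bKO 2, which also had the highest *Etv5* and *Il17rd* levels. Facial mesenchyme markers (10 genes) summed to 1080 to 1147 CPM in wt. Rspo2KO (807 to 882 CPM) and DKO (889 to 1003 CPM) lay wholly below wt. Wnt9bKO ran from 732 CPM in Wnt9bKO 2 to 1371 CPM in Wnt9bKO 1. Neuronal markers (8 genes) summed to 557 to 621 CPM in wt and 370 to 554 CPM in Wnt9bKO. They were higher in Rspo2KO (685 to 805 CPM) and DKO (683 to 733 CPM), without overlap. Surface epithelium markers (10 genes) stayed between 259 and 318 CPM and endothelial markers (8 genes) between 192 and 234 CPM. Heart and muscle markers summed to 58.7 CPM in wt 1 and to 3.93 to 12.3 CPM in the other libraries. Of these lists only that of heart and muscle had a gene at 0, which was 1 of 8 genes in Rspo2KO 2 and in Wnt9bKO 2. The part of these tissues in the differences of the 10 genes was not tested, and without Wnt9bKO 2 and DKO 3 the Wnt9bKO differences of *Il17rd* (0.85, adjusted p = 0.00138), *Spred2* (1.18, 0.00612) and *Etv5* (0.53, 0.0263) passed, while *Spry2* did not (-0.39, 0.0515).

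Other genes of the pathway were examined from fixed lists, whose counts of genes passing stand beside 32.8% of all genes in Wnt9bKO and 27.5% in DKO against wt. Of 22 FGF ligand genes 15 could be tested, and 2 rose in Wnt9bKO. *Fgf15* was at 4.64 and 3.44 CPM in wt and 6.33, 17.9 and 10.96 CPM in Wnt9bKO (log2 1.55 ± 0.42, adjusted p = 0.0125), with its highest level in the library with the highest forebrain and eye markers. *Fgf2* had 0 and 2 counts in wt and 19, 3 and 12 counts in Wnt9bKO (adjusted p = 0.0217), too few for a fold change. *Fgf8*, an ectodermal FGF that patterns the first branchial arch, was at 10.9 and 7.48 CPM in wt, 5.61, 6.19 and 4.86 CPM in Rspo2KO, 7.77, 9.71 and 11.7 CPM in Wnt9bKO, and 6.10, 6.97 and 11.04 CPM in DKO. Rspo2KO lay below wt (-0.71 ± 0.26, unadjusted p = 0.0163, adjusted p = 0.298), and the DKO and Wnt9bKO differences were -0.18 and 0.09. The DKO value of 11.04 CPM was in the library labelled DKO 3, whose *Rspo2* level went against its label. The other DKO libraries lay below both wt libraries. An estimate of the DKO difference of *Fgf8* without DKO 3 is not given here. *Fgf10* differed from wt by -0.25, 0.02 and -0.01 in Rspo2KO, Wnt9bKO and DKO, and the interval in DKO ran from -0.46 to 0.44.

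Of 15 receptor and coreceptor genes 13 were tested, and 2 rose and 4 fell in Wnt9bKO. *Gpc4*, a heparan sulfate proteoglycan, rose from 13.5 and 14.2 CPM in wt to 22.5, 33.3 and 35.8 CPM (log2 1.14 ± 0.22, adjusted p = 0.00164). *Sdc1*, another such proteoglycan, fell by 0.54 on the log2 scale (adjusted p = 0.00349). *Fgfr3*, an FGF receptor, fell by 0.99 in Wnt9bKO (adjusted p = 0.00359), from 41.3 and 49.3 CPM in wt to 24.8, 17.4 and 26.5 CPM, and its DKO difference was -0.18 (adjusted p = 0.573). In DKO 4 of the 13 passed. Without Wnt9bKO 2 and DKO 3 the counts were 5 (29.7% of all genes) and 3 (25.6%).

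Of 25 genes of the RAS-ERK cascade itself, 13 passed in Wnt9bKO (7 higher, 6 lower, against 32.8% of all genes) and 13 in DKO (7 higher, 6 lower, against 27.5%). *Hras*, which encodes a RAS GTPase, was at 61.5 and 68.9 CPM in wt, 60.2 to 71.2 CPM in Rspo2KO, 31.5 to 33.2 CPM in Wnt9bKO and 35.1 to 38.2 CPM in DKO, and fell by 1.02 in Wnt9bKO (adjusted p = 1.65e-05). The adaptor gene *Shc1* fell by 0.69 (adjusted p = 0.000575), and *Ptpn11*, whose phosphatase SHP2 promotes RAS activation, rose by 0.87 (adjusted p = 0.000152). The median difference of the list was 0.12 in Wnt9bKO and 0.02 in DKO. The 7 genes that rose in Wnt9bKO had 5082 to 15850 bases of exon (median 10594) and the 6 that fell 2257 to 5645 (median 3431). With the GC and length offset 12 genes passed in each comparison, 7 higher and 5 lower in Wnt9bKO (33.8% of all genes) and 5 higher and 7 lower in DKO (29.5%).

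Among 19 family relatives of the members 7 passed in Wnt9bKO (3 higher, 4 lower) and 6 in DKO (2 higher, 4 lower). The ERK phosphatase genes *Dusp7* and *Dusp9* fell by 0.68 (adjusted p = 0.000156) and 0.94 (adjusted p = 0.000583) in Wnt9bKO, the direction of *Dusp6*, and *Elk4*, an ETS factor phosphorylated by ERK, rose by 1.10 (adjusted p = 0.000228). Of 16 tested genes induced by ERK in many cell types 1 passed in Wnt9bKO, *Bhlhe40*, with 2.26 to 2.98 CPM in Wnt9bKO against 0.27 and 0.42 CPM in wt (log2 2.82, adjusted p = 0.000285), and 2 passed in DKO. The wt levels of *Bhlhe40* rest on few counts, so the size of its fold change is uncertain. In DKO against Rspo2KO, where 18.2% of all genes passed, 1 of 15 ligand, 1 of 13 receptor, 9 of 25 cascade, 6 of 19 family and 4 of 16 other induced genes did. In Rspo2KO against wt, DKO against Wnt9bKO and the interaction, 0 genes of any of these 5 lists passed.

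**Figure D5:**
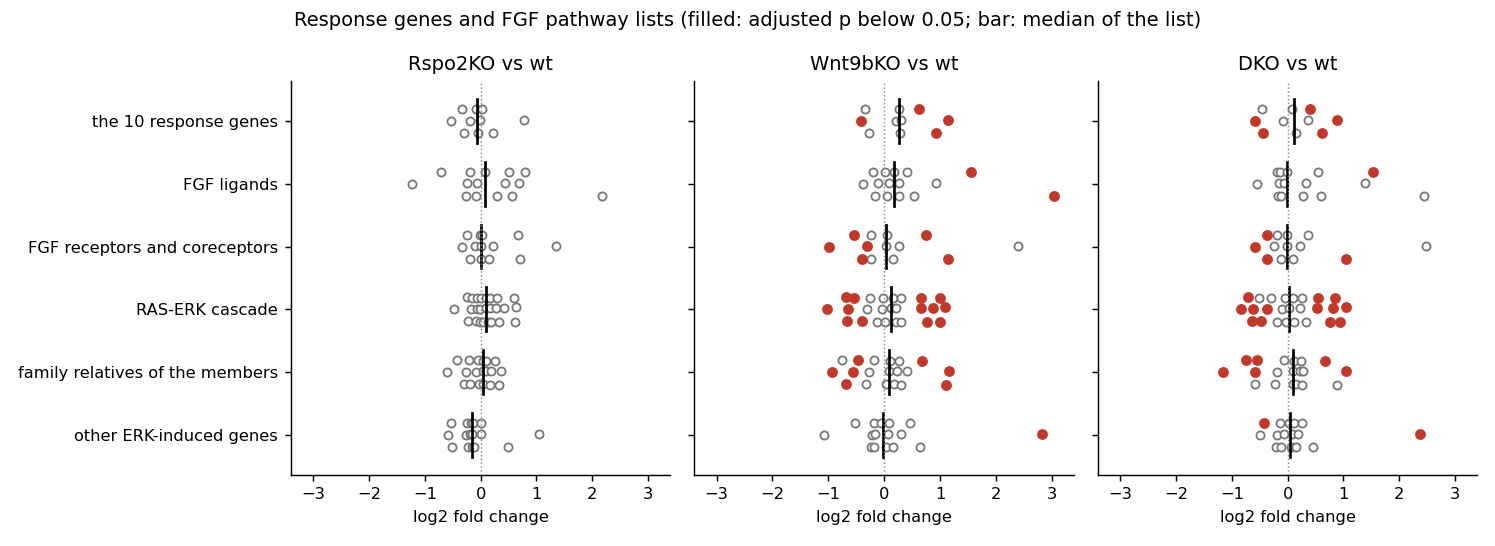
Log2 fold change (x axis) of the 10 response genes and of 5 FGF pathway lists (y axis) in each mutant against wt, 1 point per gene, filled where the adjusted p is below 0.05, with a bar at the median of the list. Filled points lie on both sides of 0 in Wnt9bKO and DKO, 13 of them in the RAS-ERK cascade in each, and there are none in Rspo2KO.

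Over the 11 libraries, the non-member genes whose log2 CPM ran closest to *Etv5* were *Dcp1a* (Pearson r = 0.98), *Usp54* (0.97) and *Cluh* (0.97). For *Spry4* they were *Smad9* (0.92), *Tbx3* (0.92) and *Tril* (0.90), and for *Dusp6* *Smg8*, *Cdc20* and *Baiap2* (0.91 each). These values describe 11 libraries that share genotype, the split between Wnt9bKO and DKO and the other libraries, and sequencing depth. After subtraction of each genotype mean, r was 0.91 to 0.95 for the 3 genes near *Etv5*, 0.91 to 0.97 for those near *Spry4* and 0.63 to 0.79 for those near *Dusp6*. No member was among the genes named here, since members were left out of the search.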

How the data were processed

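RNA sequencing of E10.5 facial process explants was analysed in 11 libraries (2 wt and 3 each Rspo2KO, Wnt9bKO and DKO, from the labels). The methods give 3 samples per genotype, so the wt contrasts rest here on fewer libraries than stated there. The authors deposited counts, whole numbers of reads per Ensembl gene without normalization. Per the methods and processing notes, trimming was by cutadapt, alignment of the single-end reads to GRCm38 by STAR and counting by HTSeq. Versions and strand setting are not given in the sources used here. All libraries were kept under their labels. Whether replicates are separate embryos is not stated, so p-values measure the spread between libraries.

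Counts were tested with edgeR 4.0.16 (R 4.3.3) by filterByExpr, TMM and a quasi-likelihood fit with 1 mean per genotype, two-sided, with Benjamini-Hochberg adjustment over 17317 genes; DESeq2 1.42.0 was the alternative. Lengths, GC content and names came from GENCODE M21 (GRCm38), matching 36723 of 38561 genes. CPM used TMM-scaled totals. The fits were tested on simulated data. The members and lists were chosen with earlier results of these data known. Text names all members, *Fgf8*, *Fgf10*, and per list up to 3 genes with the smallest p in Wnt9bKO against wt. Intervals are 95% and cover the spread between libraries.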

Additional observations from a re-analysis of the deposited data

How the results depend on the processing

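Each of the 60 differences of the 10 genes was recomputed under up to 21 alternatives, 1250 values in all, of which 1161 kept their direction and their side of the threshold, 41 lost the call, 24 gained it and 24 changed sign. The count of genes that passed in Rspo2KO against wt rose from 0 to 2 with no low-count filter and to 1 under the rule of the study (unadjusted p below 0.05 and over 1.5-fold). Under that rule it was 2 in DKO against wt, 0 in DKO against Rspo2KO and 1 in the interaction, and the interaction count was also 1 with no filter. In DKO against Rspo2KO it was 1 with the GC and length offset and 1 without Wnt9bKO 2 and DKO 3. Leaving out 1 library at a time gave 2 to 6 genes in Wnt9bKO against wt, 1 to 7 in DKO against wt, 0 to 4 in DKO against Rspo2KO and 0 in the other comparisons. The cause was not tested, except that a fit without wt 1 or wt 2 has 1 wt library, which is assumed to vary like the other groups.

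All sign changes concerned differences that had not passed. Leaving out 1 library at a time moved the log2 difference from wt in Rspo2KO across 0 for *Spred1* (-0.057 to 0.045), *Spry1* (-0.15 to 0.00043), *Etv5* (-0.13 to 0.14) and *Etv1* (-0.15 to 0.043). The same held in DKO against wt for *Spry1* (-0.00074 to 0.19) and *Spry4* (-0.23 to 0.015), in DKO against Wnt9bKO for *Etv4* (-0.26 to 0.064) and *Spry1* (-0.21 to 0.0010), in DKO against Rspo2KO for *Spred2* (-0.071 to 0.50) and *Spry4* (-0.025 to 0.21), and in the interaction for *Spry1* (-0.13 to 0.084). In Rspo2KO against wt, *Spred1* was 0.0021 with only the groups compared, and *Spry1* was 0.0087 with the replicate block and 0.029 with block and offset. Without Wnt9bKO 2 and DKO 3, *Spry1* was 0.11 in DKO against Wnt9bKO and 0.21 in the interaction, and *Spred2* was -0.040 and *Spry4* -0.023 in DKO against Rspo2KO.

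With the replicate block, 5, 0 and 4 genes passed in Wnt9bKO, Rspo2KO and DKO against wt (35%, 0.0404% and 29.6% of all genes), and 2 in DKO against Rspo2KO (20.1%). *Dusp6* gained the call in Wnt9bKO (adjusted p = 0.0437) and *Etv1* lost it in DKO (0.0542). Deviations of same-numbered libraries correlated at -0.11 to 0.24 over 15 pairs, 3 of them above 0.1. The values below 0 were all in pairs with a wt library. Each mutant library correlated best with its own number in 18 of 18 checks among the mutants. The checks take each same-numbered pair from both of its libraries, so they are not independent of one another. By this description the mutant libraries varied together by number. What the numbers stand for is not given in the labels. The main test has no term for them, and the counts with such a term are those of the replicate block.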
